A study of Homo sapiens with 4 samples.

Results

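The expression of a list of 41 genes of the lysosome and of autophagy was followed in HuCCT1, an established human cell line of intrahepatic cholangiocarcinoma, a cancer of the bile ducts within the liver. The genes were listed by name, and a microarray probe was assigned to a gene when the RefSeq accession printed for the probe belonged to that gene. Of the 41 genes, 40 had a probe detected on all 4 arrays, out of 13602 genes measured in this way. The remaining gene, CD63, which encodes a tetraspanin of late endosomes and lysosomes, had no probe matched by accession and was not measured here. The cells received 1 of 4 transfections at 30 nM. These were Pre-miR-376c, the Pre-miR negative control, siGRB2 or the AllStars siRNA, a nonspecific siRNA called siRNA negative control below. Pre-miR-376c is described in the study as a mimic of the mature microRNA miR-376c-3p. The siRNA against GRB2, siGRB2, is called siGRB2-2 in the study's text. All 4 groups were then treated in the same way, with 5 ng/ml EGF in medium with 0.1% fetal bovine serum, starting 24 h after transfection and lasting 24 h. No array of untransfected cells or of cells without EGF was used here. Each group is 1 array, so no p-value and no SD of a condition can be given, and every statement below compares single arrays.

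Lysosomes are acidic organelles in which hydrolases break down proteins, lipids, glycogen and glycosaminoglycans. A membrane pump, the V-ATPase, keeps them acidic, and heavily glycosylated membrane proteins line them. In autophagy a double membrane closes around cytoplasm and delivers it to the lysosome, through a kinase complex that starts the process, a ubiquitin-like conjugation system and proteins of the ATG8 family. The transcription factors TFEB and TFE3 bind the E-box-like CLEAR element before many of these genes. They are held in the cytosol when mTORC1 phosphorylates them, and growth factor signalling is among the inputs of mTORC1. GRB2 is the adaptor that links the activated EGF receptor to RAS. Cathepsins are also secreted by many carcinomas, where they cut extracellular matrix proteins.

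The microRNA whose mimic was transfected is shown first. The mature microRNA, hsa-miR-376c-3p, has 21 bases and lies at chr14:101039732-101039752 on the plus strand of GRCh38.p14 (RefSeq), and the capitals mark its seed, bases 2 to 8.
hsa-miR-376c-3p: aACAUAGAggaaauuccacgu
Transcript ends were not analysed here, so no member was searched for a match to this seed.

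The promoter windows of RefSeq (250 bases before to 50 bases after each start site, GRCh38.p14) were searched for the core of the CLEAR element, because TFEB and TFE3 are members themselves. Promoters were matched by symbol for 33 of the 41 listed genes. The motif CACGTG reads the same on both strands, and the longer form TCACGTGA contains it, as does the longest form searched, in which GT comes before the core and AC after it. CACGTG stood in 8 of the 33 members' promoters (24.2%), in 7.43% of all 27305 promoters and in 9.86% of the 10850 promoters of measured genes. TCACGTGA stood in 5 members (15.2%) beside 1.82% of measured genes, and the longest form in 2 members (6.06%), GAA and MCOLN1, beside 0.691%. The shares were also raised in the further lysosome and autophagy genes taken for context below, so the motif is not particular to the members. In 74 promoters of those genes the forms stood in 18.9%, 8.11% and 4.05%, from shortest to longest. The windows of 30 bases below, with CACGTG in capitals, show a site for each of the 7 measured members that hold the motif, and a further site of GAA because its values stand out below. Further sites of CTSA, MCOLN1 and LAMP1 are not shown.
GAA, chr17:80101493-80101522, plus strand: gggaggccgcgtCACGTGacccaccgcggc
GAA, chr17:80101538-80101567, plus strand: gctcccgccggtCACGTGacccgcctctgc
MCOLN1, chr19:7522598-7522627, plus strand: gggctaccgggtCACGTGaccgaggcacag
CTSA, chr20:45891298-45891327, plus strand: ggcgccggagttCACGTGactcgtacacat
CTSD, chr11:1763957-1763986, minus strand: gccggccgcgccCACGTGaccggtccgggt
ATP6V0D1, chr16:67481199-67481228, minus strand: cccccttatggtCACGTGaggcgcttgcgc
LAMP1, chr13:113297199-113297228, plus strand: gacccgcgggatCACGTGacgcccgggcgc
NEU1, chr6:31862930-31862959, minus strand: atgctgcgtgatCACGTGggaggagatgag
The letters of GAA and MCOLN1 continue the motif to that longest form, and CTSD and NEU1 hold the core alone. A match describes the letters and does not show that a factor binds there.

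Levels are log2 values of the scanner's processed signal minus the 75th percentile of the same array, so that 0 is the signal at that percentile and a difference of 1 between arrays is 2-fold. The 75th percentile signal was between 1719 and 2689 on the 4 arrays, and between 21824 and 24133 of 34127 probes were detected. Differences that involved the siRNA negative control array were wider than the others across all genes, with an SD over genes of 0.50 to 0.55, against 0.30 and 0.34 for the comparisons of both treatments with the Pre-miR negative control. Both treatments share each control, so every member is given against both controls. GRB2, the siRNA's target, had levels of 0.62 with Pre-miR negative control, 0.07 with Pre-miR-376c, -0.10 with siRNA negative control and -0.65 with siGRB2. It was lowest with siGRB2, and with Pre-miR-376c it was below the Pre-miR negative control but above the siRNA negative control. Of the biliary epithelium markers, all 6 (KRT7, KRT19, KRT8, KRT18, EPCAM and SOX9) were detected on all arrays. So were 1 of 3 hepatocyte genes (APOA1, but not ALB or TTR) and 2 of 4 fibroblast genes (COL1A1 and LUM, but not COL1A2 or DCN). Also detected were 2 of 3 endothelial genes (VWF and CDH5) and 3 of the 5 leukocyte genes with a probe (PTPRC, CD14 and CSF1R). Another leukocyte gene, AIF1, had no probe. On the Pre-miR negative control array the biliary markers had levels from -1.29 (SOX9) to 7.98 (KRT19). The other detected genes lay from -5.56 (PTPRC) to -1.99 (CD14) there. In RNA from a whole culture, a change in each cell and a change in a share of the cells cannot be told apart.

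As a list, the 40 members moved little, and close to the bulk of the genes. The median log2 difference of the members was -0.05 with Pre-miR-376c against Pre-miR negative control, beside -0.02 for all genes. Against siRNA negative control it was 0.02, beside 0.06. With siGRB2 the members' median was 0.23 against siRNA negative control, beside 0.11 for all genes, and 0.10 against Pre-miR negative control, beside 0.03. The 2 negative controls themselves differed by a median of -0.13 in the members (siRNA negative control minus Pre-miR negative control), beside -0.08. These signs depend on the scaling, since scaling on array medians moved the median of all genes to 0.09, -0.10, -0.17, 0.02 and 0.19 in the same order and turned the sign of the members' median in 4 of the 5 pairs. The spread over members was also that of the bulk, with an SD over members of 0.30, 0.51, 0.50, 0.25 and 0.52, beside 0.34, 0.50, 0.55, 0.30 and 0.53 over all genes.

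**Figure D1:**
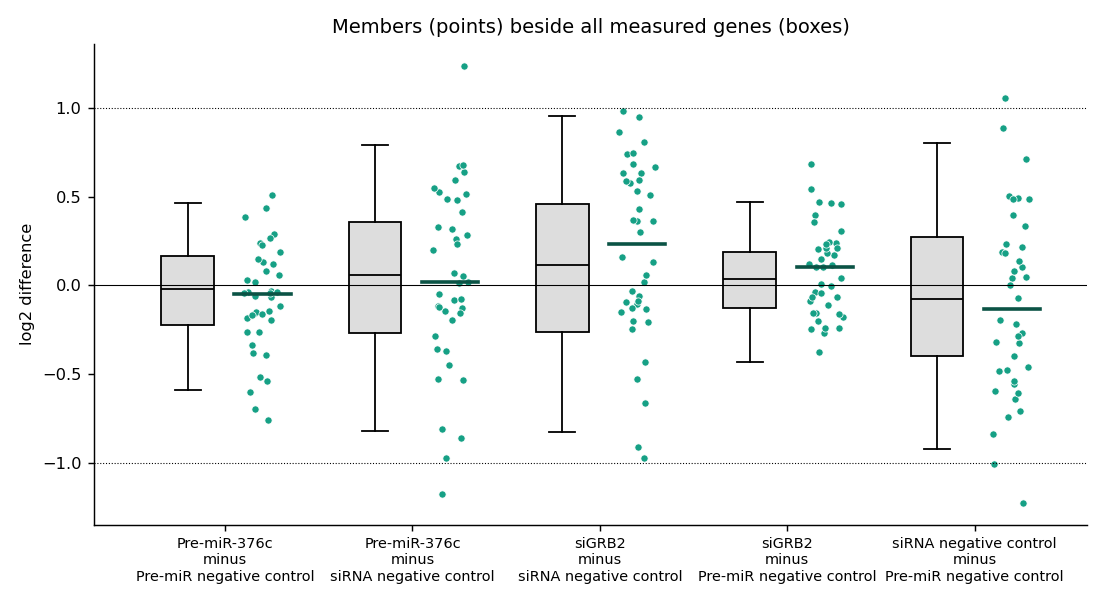
Log2 differences of the 40 members (green points, green line at their median) beside all 13602 measured genes (box at the quartiles, line at the median, whiskers at the 5th and 95th percentiles) for the 5 pairs of arrays, with dotted lines at the 2-fold limits. The members follow the boxes, and the points spread from -1.18 to 1.24 with Pre-miR-376c against siRNA negative control but only from -0.76 to 0.51 against Pre-miR negative control.

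Few members reached the 2-fold limit, and each that did involved the siRNA negative control array. With Pre-miR-376c none of the 40 was at least 2-fold apart from its Pre-miR negative control, where 1.14% of all genes were. Against siRNA negative control there were 2 such members, CTSS higher (beside 2.07% of genes) and GUSB lower (beside 2.49%). With siGRB2 there were 0 against siRNA negative control, beside 6.74% of genes, and 0 against Pre-miR negative control, beside 0.934%. Between the 2 controls GUSB was higher with the siRNA negative control (beside 2.06% of genes), and CTSS and PSAP were lower (beside 3.64%). At the lower limit of 1.5-fold, 3 members were lower with Pre-miR-376c than with Pre-miR negative control and 0 higher, beside 5.12% and 2.68% of genes. Against siRNA negative control, 5 were higher and 4 lower, beside 11.4% and 10.7%. With siGRB2 against siRNA negative control, 12 were higher and 3 lower, beside 17.6% and 10.9%, whereas against Pre-miR negative control 1 was higher and 0 lower, beside 2.71% and 2.4%. Between the controls 3 were higher and 8 lower with siRNA negative control, beside 10.4% and 14.7%. Scaled on array medians, these splits of higher and lower members were 1 and 1 with Pre-miR-376c against Pre-miR negative control, 1 and 7 against siRNA negative control, 2 and 5 with siGRB2 against siRNA negative control, and 9 and 2 between the controls. The median of all genes in these pairs was then 0.09, -0.10, -0.17 and 0.19. Shares of all genes past 1.5-fold were not counted under that scaling, so these splits are not read as a result about the members.

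A difference that does not rest on 1 control array must lie on the same side of both. No member lay outside both controls by 2-fold with either treatment, beside 0.176% of genes above and 0.147% below with Pre-miR-376c, and 0.25% above and 0.11% below with siGRB2. By 1.5-fold, GAA alone lay below both with Pre-miR-376c (1.59% of genes did), no member lay above both (0.809%), and none lay outside both with siGRB2 (1.26% above, 0.934% below). By any amount, 9 members lay above and 13 below both controls with Pre-miR-376c, beside 29.3% and 27.2% of genes, and 15 lay above and 8 below with siGRB2, beside 38.3% and 23.9%. These shares of the members stand near those of all genes.

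**Figure D2:**
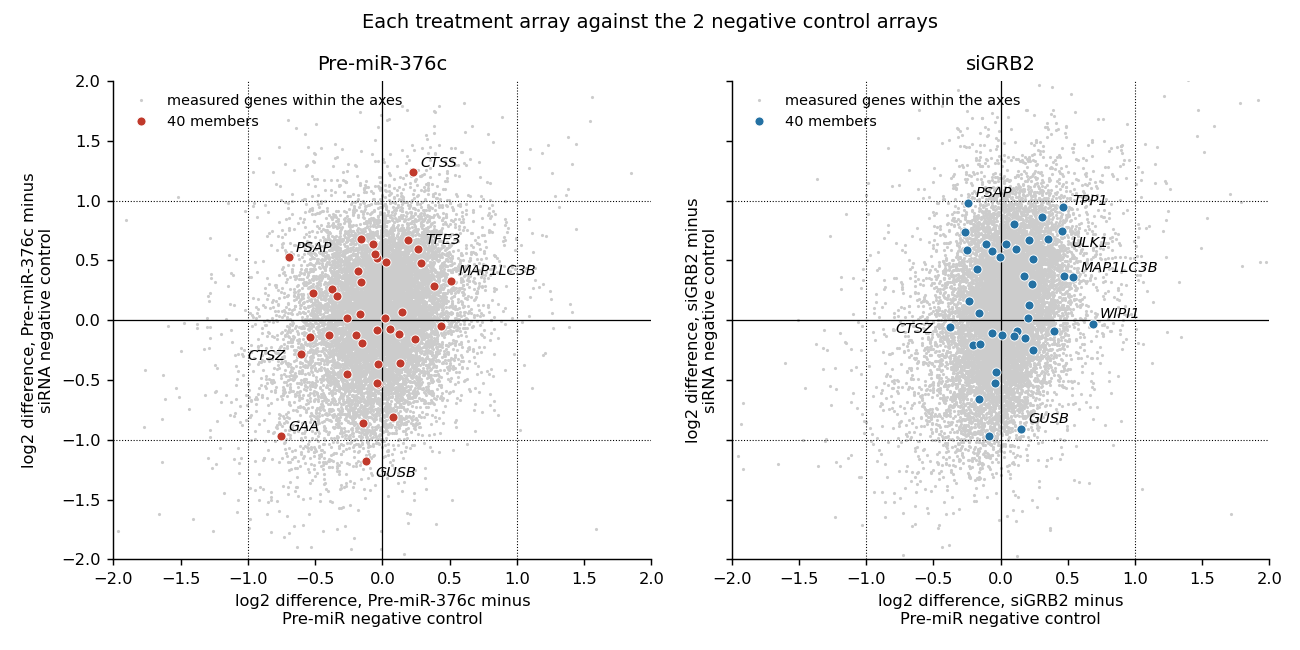
Log2 difference of each treatment array from the Pre-miR negative control (x axis) and from the siRNA negative control (y axis), for the 40 members (coloured) and the measured genes within the axes (grey), with dotted lines at 2-fold. With Pre-miR-376c only GAA reaches -0.76 or lower on both axes, with siGRB2 TPP1 and ULK1 lie at 0.46 to 0.95 on both, and PSAP has opposite signs on the 2 axes in both panels.

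GAA, the acid alpha-glucosidase that breaks down glycogen in the lysosome, was the only member outside both controls by 1.5-fold. With Pre-miR-376c 1.59% of all genes lay below both in this way. Its level was 2.58 with Pre-miR negative control, 1.82 with Pre-miR-376c, 2.79 with siRNA negative control and 2.70 with siGRB2. The other 3 arrays lay close together and the Pre-miR-376c array lay below them. The log2 difference with Pre-miR-376c was -0.76 against Pre-miR negative control, a ratio of 0.592, and -0.97 against siRNA negative control, a ratio of 0.511. The SD over all genes in these pairs was 0.34 and 0.50. With siGRB2 the differences were -0.09 and 0.12 against siRNA and Pre-miR negative control. The scanner software's own error of a difference was 0.20 for this probe, and GAA is covered by 1 probe with 1 spot. That error hardly varied over the member probes and pairs (median 0.20, highest 0.27), so it is not particular to a probe. GAA stayed below both controls by 1.5-fold in each of the 7 other ways the values were computed, with -0.64 and -1.13 under median scaling and -0.79 and -0.80 after quantile normalization.

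**Figure D3:**
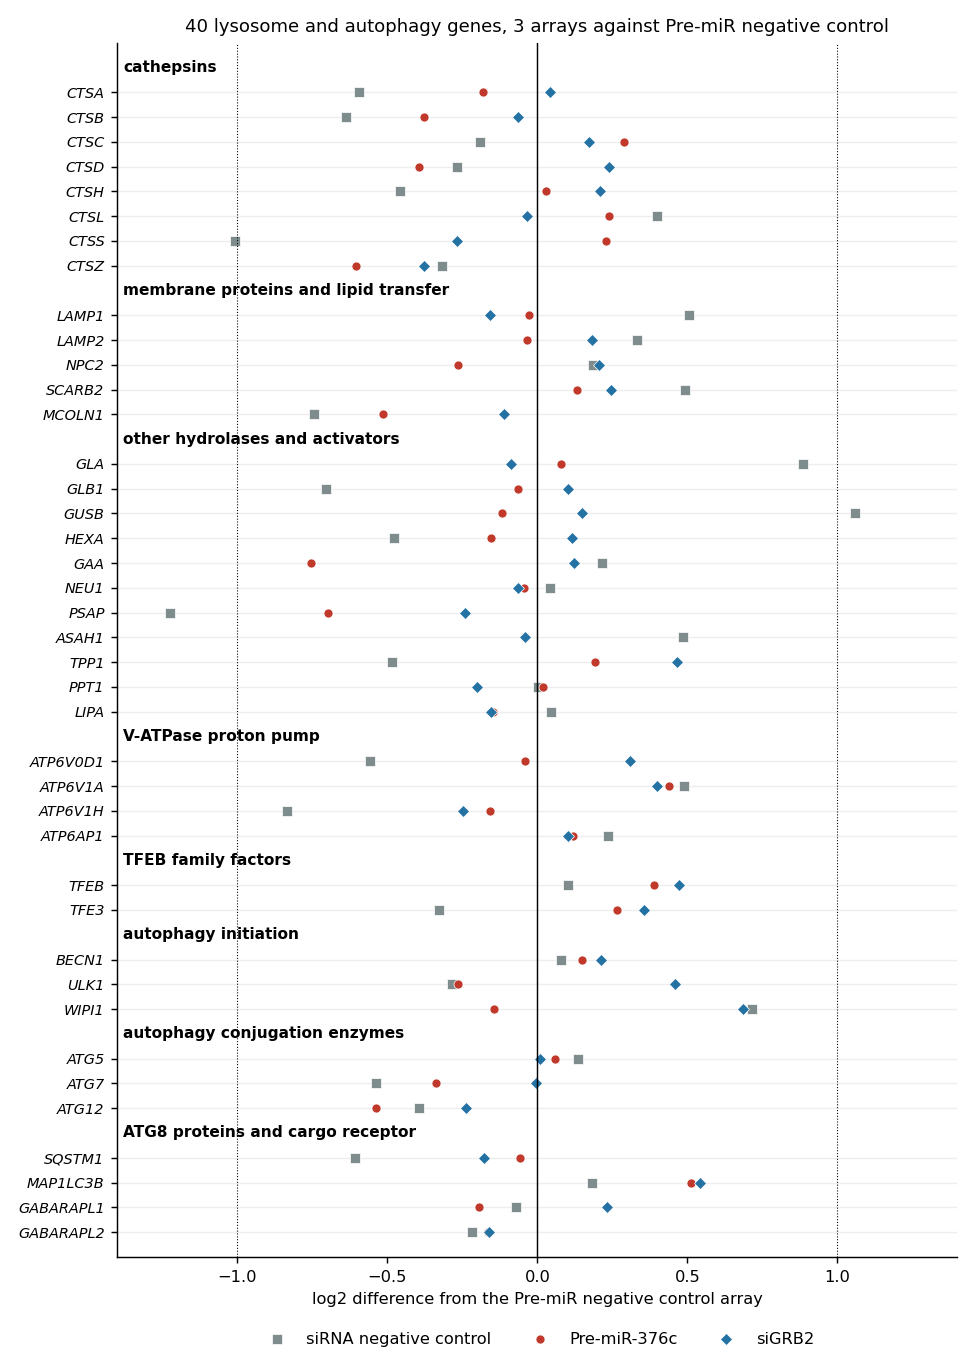
Log2 difference of the siRNA negative control (grey squares), Pre-miR-376c (red circles) and siGRB2 (blue diamonds) arrays from the Pre-miR negative control array for the 40 members, by role, with dotted lines at 2-fold. The grey squares lie farthest from 0 for many members, up to 1.06 for GUSB and down to -1.22 for PSAP, and the red circle of GAA at -0.76 stands apart from its other 2 points.

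Cathepsins are lysosomal proteases, and 8 of the measured members belong to them: the serine carboxypeptidase CTSA, the aspartic protease CTSD, and the cysteine proteases CTSB, CTSC, CTSH, CTSL, CTSS and CTSZ. With siGRB2, 6 of the 8 were higher than with siRNA negative control, as were 7965 of all 13602 genes, with differences from -0.43 to 0.74 and a median of 0.54. Of these, 3 exceeded 1.5-fold (CTSA at 0.64, CTSH at 0.67 and CTSS at 0.74), beside 17.6% of genes. CTSS was under 1.5-fold there after quantile normalization (0.43), median scaling (0.46) and normexp correction (0.36). Under median scaling no cathepsin was 1.5-fold higher in this pair. The only 2 members that were, PSAP (0.70) and TPP1 (0.66), are not cathepsins. Against Pre-miR negative control 4 of the 8 were higher and 4 lower, beside 7591 and 6011 of the 13602 genes, with differences between -0.38 and 0.24. On the siRNA negative control array 7 of the 8 were lower than on the Pre-miR negative control array, as were 7612 of the 13602 genes, and the median of the 8 was -0.39. The medians of the siGRB2 comparison with siRNA negative control and of the controls kept their signs under median scaling, at 0.26 and -0.12. Further cathepsins, taken for context below, did not share these directions. With siGRB2 against siRNA negative control, CTSF, CTSK, CTSO and CTSV were at -0.002, -0.02, -0.71 and -0.49. Between the controls they were higher with the siRNA negative control, by 0.26, 0.22, 0.73 and 0.64.

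CTSS, a cysteine protease best known from antigen-presenting cells, had levels of -3.77 with Pre-miR negative control, -3.54 with Pre-miR-376c, -4.78 with siRNA negative control and -4.04 with siGRB2. The siRNA negative control array was the low one, and the other 3 lay between -4.04 and -3.54. Its difference between the controls (-1.01) was under 2-fold after quantile normalization, median scaling and normexp correction and in the deposited table, at -0.45 to -0.94. Its differences with Pre-miR-376c were 1.24 against siRNA negative control (0.68 after normexp correction) and 0.23 against Pre-miR negative control, and with siGRB2 they were 0.74 and -0.27. CTSD, the main aspartic protease of the lysosome, had levels of 1.34, 0.95, 1.07 and 1.58 in the order Pre-miR negative control, Pre-miR-376c, siRNA negative control and siGRB2, an order kept for the sets of values that follow. Pre-miR-376c was lowest and siGRB2 highest of the 4 for CTSD, and the differences from both controls were -0.39 and -0.13 for Pre-miR-376c, whereas siGRB2 gave 0.24 and 0.51, with the Pre-miR negative control given first. CTSZ, a carboxypeptidase, had levels of -0.41, -1.02, -0.73 and -0.79, and with Pre-miR-376c it was lower than both controls by 0.60 and 0.29. CTSL, an endopeptidase, was the only cathepsin among the members that went the other way between the controls, 0.40 higher with the siRNA negative control.

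Among the membrane proteins, LAMP1, an abundant glycoprotein of the lysosomal membrane, had levels of 4.80, 4.77, 5.31 and 4.64. Both treatments lay within 0.16 of the Pre-miR negative control, and the siRNA negative control was the high one, so that the differences from it were -0.54 with Pre-miR-376c and -0.66 with siGRB2. SCARB2, the receptor that carries glucocerebrosidase to the lysosome, was likewise highest with the siRNA negative control, at 0.49 above the Pre-miR negative control. So was LAMP2, at 0.33, but only as the mean of 3 probes that disagreed. These gave 1.15, 0.10 and, for the brightest probe, -0.24 between the controls. MCOLN1, a cation channel of the lysosomal membrane, had levels of -2.65, -3.16, -3.39 and -2.76, so that Pre-miR-376c lay between the controls at -0.51 and 0.23. NPC2, the soluble protein that passes on cholesterol, was below both controls with Pre-miR-376c (-0.26 and -0.45) and above both with siGRB2 (0.21 and 0.02).

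The 11 other hydrolases and activators, GAA among them, went in both directions between the controls. With the siRNA negative control 7 were higher and 4 lower, beside 5990 and 7612 of all 13602 genes. With Pre-miR-376c 2 lay above and 5 below both controls by any amount, beside 29.3% and 27.2% of all genes. With siGRB2 3 lay above and 5 below, beside 38.3% and 23.9%. GUSB, the beta-glucuronidase that degrades glycosaminoglycans, had levels of 2.70, 2.58, 3.76 and 2.85, and its probe was printed in 10 spots with an SD between spots of 0.03 to 0.05. The siRNA negative control array was 1.06 above the Pre-miR negative control, and both treatments lay within 0.15 of the latter, which gave differences of -1.18 and -0.91 from the siRNA negative control. GLA, the alpha-galactosidase, was likewise highest with the siRNA negative control, with 3.23, 3.31, 4.11 and 3.14. GLB1, the beta-galactosidase behind the senescence-associated staining, went the other way with 2.15, 2.09, 1.45 and 2.26, and its differences were -0.07 and 0.10 from the Pre-miR negative control but 0.64 and 0.81 from the siRNA negative control. PPT1, a thioesterase that removes palmitate from proteins, had 1.51, 1.53, 1.51 and 1.31 as the mean of 2 probes that disagreed. With siGRB2 its brighter probe was at -0.34 and -0.57 from the Pre-miR and siRNA negative controls, and its dimmer probe at -0.07 and 0.16. HEXA followed GLB1 between the controls (-0.48) and ASAH1, the acid ceramidase, followed GLA (0.49), while NEU1 and LIPA stayed within 0.20 in every pair.

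PSAP and TPP1 were higher with siGRB2 than with siRNA negative control by 0.98 and 0.95, close to the 2-fold limit. PSAP, the precursor of the saposins that help enzymes degrade sphingolipids, had levels of 2.11, 1.41, 0.89 and 1.87. The siRNA negative control was the lowest, 1.22 below the Pre-miR negative control, and Pre-miR-376c lay between the controls at -0.70 and 0.53. Against Pre-miR negative control siGRB2 was at -0.24. TPP1, a tripeptidyl peptidase, had levels of 0.62, 0.81, 0.14 and 1.09, so that siGRB2 was above both controls, by 0.47 and 0.95, and Pre-miR-376c was above both as well, by 0.19 and 0.67. Both probes of TPP1 had that order against both controls.

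Of the V-ATPase genes, ATP6V0D1, a subunit of the membrane sector, had levels of 1.23, 1.19, 0.67 and 1.53, and siGRB2 was above both controls by 0.31 and 0.86. ATP6V1A, the catalytic subunit, was higher than the Pre-miR negative control on the other 3 arrays, by 0.44 with Pre-miR-376c, 0.40 with siGRB2 and 0.49 with siRNA negative control. ATP6V1H was lowest with siRNA negative control, at -0.84 from the Pre-miR negative control, and the accessory subunit ATP6AP1 stayed within 0.24 in every pair.

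The transcription factors TFEB and TFE3 were above both controls with both treatments, each by less than 1.5-fold against at least 1 control. TFEB had levels of -1.45, -1.06, -1.35 and -0.98, and was above the Pre-miR and siRNA negative controls by 0.39 and 0.28 for Pre-miR-376c, and for siGRB2 by 0.47 and 0.37. Under median scaling its differences from the siRNA negative control fell to 0.13 with Pre-miR-376c and 0.08 with siGRB2. TFE3 had levels of -0.59, -0.32, -0.92 and -0.23, with differences of 0.27 and 0.59 for Pre-miR-376c, and for siGRB2 of 0.36 and 0.68. The scanner error of a probe's difference was 0.20 to 0.21 for TFEB, and the probes of TFEB disagreed. The brighter TFEB probe differed from the siRNA negative control by 0.02 on the Pre-miR-376c array and by -0.07 on the siGRB2 array, and the dimmer by 0.55 and 0.81. Both probes of TFE3 lay above both controls with both treatments, by 0.07 to 0.76, of which the smallest is within the scanner error.

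The 7 measured members with CACGTG in the promoter window had a median of 0.51 with siGRB2 against siRNA negative control, and the 25 without it had 0.13. Against Pre-miR negative control the order was the opposite, 0.04 with the motif and 0.15 without it. With Pre-miR-376c the medians were -0.18 and 0.02 against Pre-miR negative control, and -0.08 and 0.02 against siRNA negative control. Between the controls (siRNA minus Pre-miR negative control) the members' medians were -0.27 with the motif and 0.004 without it. Over the 1070 and 9780 measured genes with and without the motif, the medians were within 0.05 of each other in every pair.

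Among the genes that start autophagy, ULK1, its initiating kinase, had levels of -0.39, -0.65, -0.67 and 0.07. The siGRB2 array was the highest, by 0.46 against the Pre-miR and 0.75 against the siRNA negative control, and Pre-miR-376c was at -0.26 and 0.02. WIPI1, which binds the phosphoinositide of the forming membrane, had levels of 0.26, 0.11, 0.97 and 0.94. It was the one member more than 1.5-fold higher with siGRB2 than with Pre-miR negative control (0.69), but the siRNA negative control was equally high, and siGRB2 differed from it by -0.03. BECN1, part of the lipid kinase complex that makes this phosphoinositide, stayed within 0.21 in every pair.

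In the conjugation system, ATG12, the ubiquitin-like protein that is joined to ATG5, had levels of -0.85, -1.39, -1.25 and -1.09. It was below both controls with Pre-miR-376c, by 0.54 and 0.14, but its probes differed in opposite directions between the controls (0.54 and -1.33). The brighter probe gave -0.23 and -0.78 with Pre-miR-376c. The dimmer probe, with levels from -5.39 to -4.05, gave -0.84 and 0.49, so it did not lie below both controls. ATG5 stayed within 0.14 in every pair as the mean of 2 probes, which differed in opposite directions between the controls (-0.35 and 0.62). ATG7, the activating enzyme of the system, was lower with Pre-miR-376c than with Pre-miR negative control (-0.34) but higher than with siRNA negative control (0.20).

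MAP1LC3B, the ATG8 protein widely used to follow autophagosomes, had levels of -0.25, 0.26, -0.07 and 0.29. Both treatments lay above both controls, Pre-miR-376c by 0.51 and 0.33 and siGRB2 by 0.54 and 0.36. Under median scaling the differences of MAP1LC3B from the siRNA negative control fell to 0.17 with Pre-miR-376c and 0.08 with siGRB2. Its dimmer probe gave 0.88 and 0.51 for Pre-miR-376c, whereas siGRB2 had 0.96 and 0.59, and its brighter probe gave 0.15, 0.15, 0.12 and 0.13, which is within the scanner error of 0.20. SQSTM1, the cargo receptor p62 that autophagy itself degrades, had levels of 4.04, 3.98, 3.43 and 3.86. It was lowest with the siRNA negative control, so that the differences were 0.55 and 0.43 from that control but -0.06 and -0.18 from the Pre-miR negative control. GABARAPL1 and GABARAPL2, further ATG8 proteins, reached at most 0.30 in any pair. RNA levels do not measure autophagic flux.

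Besides the scanner's error and the spread between spots, the agreement between probes gives an error of these values. A total of 13 members had several probes, and the other 27 had 1. The median SD between probes of a member against Pre-miR negative control was 0.28 (Pre-miR-376c) and 0.19 (siGRB2), larger than the 0.15 and 0.13 over all 3207 genes with several probes. Against siRNA negative control it was 0.28 and 0.34, beside 0.31 and 0.32. Many differences named above are of that size. LAMP2, whose 3 probes carry the accessions of different transcripts, differed most with Pre-miR-376c against Pre-miR negative control, from -0.54 to 0.68. CTSC, which activates serine proteases of immune cells, had probes at 0.77, 0.19 and -0.09 in that pair. The probes of PSAP had the same sign in every pair, -0.54 and -0.85 with Pre-miR-376c against Pre-miR negative control and 0.66 and 1.31 with siGRB2 against siRNA negative control.

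A further 99 genes of the lysosome, autophagy and mTORC1 control of TFEB were taken for context, and 95 of them were measured (SGSH, ULK2, NBR1 and RRAGD were not). Against Pre-miR negative control, 0 of the 95 differed by 2-fold with Pre-miR-376c and 1, lower, with siGRB2, beside 1.14% and 0.934% of all genes. Against siRNA negative control, 3 were higher and 4 lower with Pre-miR-376c, beside 282 and 339 of 13602 genes. With siGRB2 2 were higher and 1 lower, beside 585 and 332. By 1.5-fold, none of the 95 lay above both controls with Pre-miR-376c or siGRB2, beside 0.809% and 1.26% of genes. Below both lay 1 with Pre-miR-376c and a different 1 with siGRB2, beside 1.59% and 0.934%. The former was ARSA, the arylsulfatase that degrades sulfatide, with levels of 1.59, 0.90, 2.15 and 1.18, which was 0.69 and 1.26 below the controls with Pre-miR-376c. The latter was FNIP1, a partner of folliculin in mTORC1 control, with -0.43, -0.91, -0.25 and -1.13, which was 0.70 and 0.88 below the controls with siGRB2.

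Of the 6 further lysosomal proteases measured, a group described after its values were seen, 5 were below both controls by any amount with Pre-miR-376c (CTSF, CTSK, CTSO, CTSV and PRCP), where 27.2% of all genes were. PRCP was only 0.04 below the Pre-miR negative control. The sixth, LGMN, the asparaginyl endopeptidase legumain, was above both controls, by 0.11 against Pre-miR and 1.05 against siRNA negative control. The median of the 6 was -0.44 against Pre-miR and -0.71 against siRNA negative control. CTSO had levels of -0.92, -1.43, -0.19 and -0.90 and CTSV had -0.37, -0.82, 0.26 and -0.23. In both the Pre-miR-376c array was the lowest of the 4, by 0.51 and 0.45 from the Pre-miR negative control, which is below 1.5-fold. Under median scaling the medians were -0.33 and -0.87. The 20 further hydrolases had a median of -0.28 against Pre-miR but 0.16 against siRNA negative control with Pre-miR-376c, so their direction depended on the control.

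**Figure D4:**
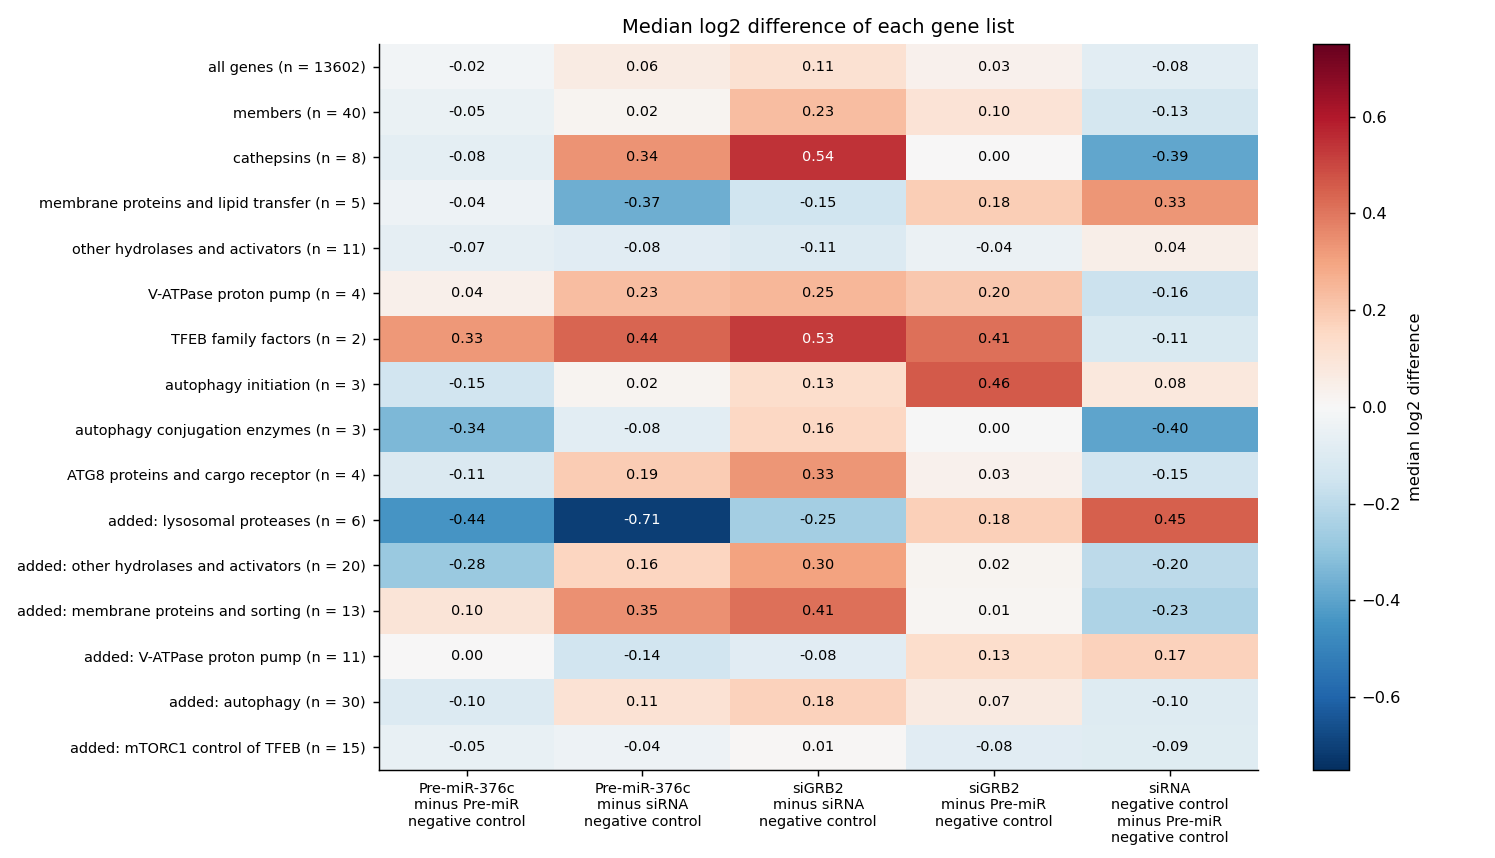
Median log2 difference of each list (rows, with the number of genes measured) for the 5 pairs of arrays (columns), coloured from blue (lower) to red (higher), with lists marked "added" taken for context. The member cathepsins are at 0.54 with siGRB2 minus siRNA negative control, where the added proteases are at -0.25, but at 0.00 minus Pre-miR negative control. TFEB and TFE3 are above 0 in all 4 treatment columns, and the median of the added proteases is below 0 in both Pre-miR-376c columns.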

How the data were processed

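HuCCT1 cells were profiled on 4 one-colour Agilent arrays, 1 per transfection, on 1 slide. Spot intensity values written by Agilent Feature Extraction (10.7.3.1 in the file headers) were deposited array by array together with log2 values that the authors scaled to the 75th percentile in GeneSpring GX. That deposited log2 table matched the scanner values, up to a constant per array, within 0.01 for 99.5% of probes, and its column medians were -3.39, -3.44, -3.59 and -3.36 (Pre-miR negative control, Pre-miR-376c, siRNA negative control, siGRB2).

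The processed intensity was converted to log2 and the 75th percentile over non-control spots was subtracted. Spots with an outlier flag (289 to 329 per array) were left out, and no spot was saturated. Spots of a probe were averaged. A probe was used when more than 0.5 of its spots were well above background on all 4 arrays, and the probes of a gene were averaged. Gene names came from the accessions, for 25422 of 34127 probes (74.5%), looked up in RefSeq (GRCh38.p14), from which the files' design build differs, so that no probe position was taken from it. The calling step was run on simulated data with shifts well past the fold limit. That run checks the code and does not measure the error of these arrays. The median SD between spots of a probe was 0.05 (log2), and precision is limited by having 4 arrays.

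With 1 array per group no test was made. Members past 2-fold (1.5-fold as an alternative) were set beside all genes in 5 pairs of arrays. The members and lists were chosen with earlier results of these data known. Members were named in full when 2-fold apart in a pair, outside both controls by 1.5-fold, or with the largest mean difference in their role group, and CTSD, GLB1, PPT1, TFEB, LAMP1, SQSTM1 and MAP1LC3B in any case. Of the added genes, those outside both controls by 1.5-fold were named. Further values of other members and those of the 5 added proteases were chosen after they were seen. Alternatives were quantile normalization, median scaling, normexp (offset 50, on median intensity), the deposited log2 table, no detection filter, the brightest probe and flagged spots kept. Python 3.11.15, numpy 2.4.6, pandas 2.3.3, R 4.3.3 and limma 3.58.1 were used.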

Additional observations from a re-analysis of the deposited data

Results flagged for a closer look

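PSAP, the precursor of the saposins, differed in opposite directions in the comparisons of each treatment with its own control, and the difference between them was not tested. It was at -0.70 (log2) with Pre-miR-376c against Pre-miR negative control and at 0.98 with siGRB2 against siRNA negative control. These comparisons use different control arrays, and PSAP was 1.22 lower on the siRNA than on the Pre-miR negative control. Against the Pre-miR negative control alone, Pre-miR-376c was at -0.70 and siGRB2 at -0.24. The part of the siRNA negative control array in the result was not tested.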

How the results depend on the processing

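No paired analysis was possible because a group consists of a single array. The larger changes of counts and of the members' medians were as follows. With quantile normalization 1 member was past 2-fold for Pre-miR-376c against siRNA negative control, 1 for siGRB2 against siRNA negative control and 1 between the controls. With median scaling the members' median was 0.063 for Pre-miR-376c against Pre-miR and -0.14 against siRNA negative control, -0.054 for siGRB2 against siRNA negative control and 0.14 between the controls. Under that scaling 4 and 2 members were past 2-fold for Pre-miR-376c and siGRB2 against siRNA negative control, beside 5.72% and 8.8% of all genes. With normexp, which left 37 members because spots with a background flag were dropped, the medians were -0.12 for Pre-miR-376c and -0.015 for siGRB2 against Pre-miR negative control, 0.13 for siGRB2 against siRNA negative control and -0.047 between the controls, and 1 member was past 2-fold for Pre-miR-376c against siRNA negative control. With the deposited log2 table siGRB2 against siRNA negative control had a median of 0.15 and 1 member past 2-fold, and the controls had a median of -0.060. With the brightest probe siGRB2 against siRNA negative control had a median of 0.13. With a 1.5-fold limit 3, 9, 15, 1 and 11 members were past it, in the order of pairs used in the report, and 1 lay below both controls with Pre-miR-376c. With any margin, an alternative chosen after seeing the data, 9 lay above and 13 below both controls with Pre-miR-376c, and 15 above and 8 below with siGRB2. Smaller moves were those between the controls, from 3 members to 2 under median scaling, normexp, the deposited table and the brightest probe, and for Pre-miR-376c against siRNA negative control from 2 to 3 with the deposited table. CTSS lost its 2-fold call between the controls in 4 settings (-0.73, -0.74, -0.45 and -0.94 with quantile, median scaling, normexp and the deposited table) and against siRNA negative control under normexp (0.68). PPT1 with its brightest probe was at -0.57 for siGRB2 against siRNA negative control, and at -0.49 with median scaling. The cause of these moves was not tested. No value past 2-fold turned its sign. Of 555 recomputed differences of the named members, 479 moved by less than the scanner error and 24 changed sign, with the largest move (0.94) in ATG12, which went from -0.40 to 0.54 between the controls and from 0.16 to -0.56 for siGRB2 against siRNA negative control with its brightest probe. TFEB went from 0.37 to -0.07 in the latter pair. Keeping spots with an outlier flag or undetected probes changed no count and no median of the members. All 55 probes of the members were detected on all arrays, so no difference is a bound.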
